A study of Mus musculus with 3 samples.

Results

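The DNA replication genes described here are 44 protein-coding genes that license origins, copy DNA or supply its building blocks. They were chosen by name, by equality of the gene symbol in the deposited tables with a fixed list, and all 44 were found among the 21877 gene rows that the 3 tables share. Of these, 20 belong to origin licensing and the replicative helicase, 20 to the polymerases, the sliding clamp and associated fork proteins, and 4 to nucleotide supply. RNA was sequenced from the skin of mice of the inbred strain FVB, marked WT in the table headers, at embryonic day 18.5 (E18.5), at postnatal day 3 (P3) and at 10 weeks. Each table held 1 averaged value per gene and age, although the series design speaks of 2 biological replicates, so that no spread, interval or p-value could be given, and the differences below carry no check against replicates. Levels are FPKM, fragment counts scaled to transcript length and to library size, and can be set side by side between genes. Sex-linked genes showed a male pattern at E18.5 and a female one at P3 and 10 weeks. Age and sex therefore cannot be told apart in the comparisons with E18.5.

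A eukaryotic origin is licensed when the origin recognition complex (ORC), with Cdc6 and Cdt1, loads the ring-shaped MCM2-7 helicase onto DNA. In S phase Cdc45 and the GINS complex join MCM2-7 to form the active helicase, and primase, the polymerases, the PCNA clamp, its loader RFC and the single-strand binding protein RPA build the fork. Ribonucleotide reductase, thymidylate synthase and thymidine kinase provide the deoxynucleotides. Many of these genes are textbook targets of the E2F transcription factors. In skin, dividing cells are found chiefly in the basal layer of the epidermis and in the matrix of growing hair follicles.

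Between E18.5 and P3 no replication gene differed by 2-fold, and in adult skin 24 of the 44 were lower than at P3. Differences are log2 ratios of FPKM + 1, the older age divided by the younger, and a gene is called higher or lower from a difference of 1, which is 2-fold on this scale. At P3 against E18.5, 0 of 44 members were called in either direction, with a median log2 difference of 0.11. Of all 14653 genes compared, 9.56% were higher and 9.42% lower in that comparison, 19.0% in all, with a median of 0.03. At 10 weeks against P3, 24 of 44 members were lower and 0 higher, with a median of -1.09, whereas 9.98% of all 14655 genes were lower, 19.8% were higher (29.8% called in either direction) and their median was 0.14. At 10 weeks against E18.5, 21 of 44 were lower and 0 higher, with a median of -0.98, against 6.92% lower and 16.1% higher (23.0% in all) among 14659 genes and a median of 0.22. The lowest value of 41 of the 44 genes lay at 10 weeks. The highest lay at P3 for 26 genes, at E18.5 for 15 and at 10 weeks for 3, Orc3, Orc4 and Orc5. Taking all rows as the whole, the members made up 0.176% of the FPKM total in E18.5 skin, 0.182% in P3 skin and 0.0818% in 10-week skin.

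**Figure D1:**
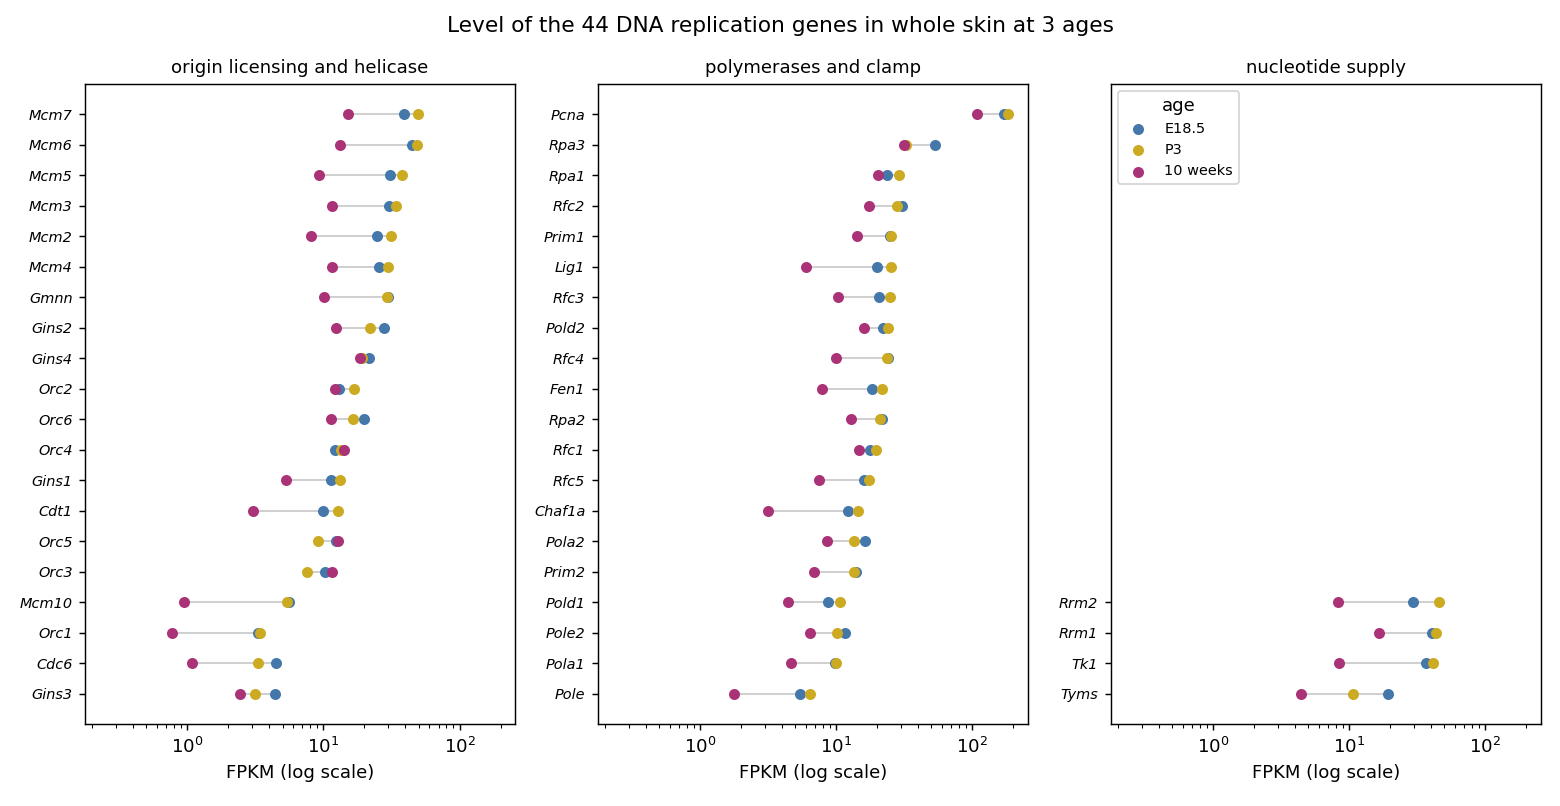
FPKM (log axis) of each DNA replication gene at E18.5, P3 and 10 weeks, in 3 panels by role; each point is 1 averaged value and the grey line joins the lowest and highest age. The 10-week points lie left of both others for 41 of 44 genes, and the exceptions are Orc3, Orc4 and Orc5.

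Promoter sequence was examined in all members that had a window, called or not. RefSeq promoter windows of the build GRCm38.p6, running from 250 bases before to 50 bases after an annotated start, were at hand for 36 of the 44 members. The E2F letters TTTCCCGC and TTTGGCGC, searched on both strands, occurred in 12 of these 36 genes (33.3%), against 486 of 27025 genes with a window (1.8%). Both spellings can overlap on opposite strands, and a gene was counted once. The 12 stretches are shown because they are what these members share in sequence, with the matched letters in capitals and 10 bases on each side where the window allows, 5′ to 3′ along the gene. Mcm3 and Mcm6 hold 2 matches each, of which 1 is shown.
Mcm3, chr1:20820276-20820303, minus strand: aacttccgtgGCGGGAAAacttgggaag
Mcm5, chr8:75109350-75109377, plus strand: aagaactttcGCGCCAAAacgtccagcc
Mcm6, chr1:128359798-128359825, minus strand: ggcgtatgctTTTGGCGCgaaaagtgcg
Mcm7, chr5:138172031-138172058, minus strand: atttcgaaccGCGGGAAAcagggtgtcc
Orc3, chr4:34614966-34614993, minus strand: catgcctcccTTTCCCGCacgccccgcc
Cdc6, chr11:98908003-98908030, plus strand: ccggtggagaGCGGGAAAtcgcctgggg
Cdt1, chr8:122568037-122568064, plus strand: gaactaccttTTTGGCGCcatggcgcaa
Gins3, chr8:95633508-95633535, plus strand: cgagtgcggcGCGGGAAAgcgagtttga
Rfc3, chr5:151651191-151651218, minus strand: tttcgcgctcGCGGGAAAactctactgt
Pola1, chrX:93632276-93632303, minus strand: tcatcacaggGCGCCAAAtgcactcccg
Pold1, chr7:44548766-44548786, minus strand: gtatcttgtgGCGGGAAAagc
Pole2, chr12:69228163-69228190, minus strand: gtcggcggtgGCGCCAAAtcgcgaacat
Of the 12 genes, 8 belong to licensing and the helicase (8 of 15 with a window, 53.3%), among them 4 of the 5 MCM2-7 genes with a window. The other 4 belong to the polymerase group (4 of 17, 23.5%), and 0 of 4 nucleotide supply genes had a match. Among members lower at 10 weeks than at P3 the letters were found in 8 of 20, and among those not called in 4 of 16, Orc3, Gins3, Pola1 and Pole2. CCAAT, the letters of the NF-Y box, on either strand, occurred in 23 of 36 members (63.9%) and in 41.1% of all genes with a window. TTTGAA or TTCGAA, the letters of the cell cycle homology region, occurred in 6 of 36 (16.7%) and in 21.7% of all genes. A match is a run of letters and does not show binding. Only the E2F spellings named above were searched. A window without a match, as in the nucleotide supply genes, may therefore still hold an E2F site in another spelling.

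Whole windows are shown for the gene with the largest fall at 10 weeks against P3 in each role, Mcm5, Rrm2 and Lig1, and for the one with the smallest difference among genes with a window, Rpa3. Capitals mark E2F, CCAAT and TTTGAA or TTCGAA letters.
Mcm5, chr8:75109259-75109558, plus strand: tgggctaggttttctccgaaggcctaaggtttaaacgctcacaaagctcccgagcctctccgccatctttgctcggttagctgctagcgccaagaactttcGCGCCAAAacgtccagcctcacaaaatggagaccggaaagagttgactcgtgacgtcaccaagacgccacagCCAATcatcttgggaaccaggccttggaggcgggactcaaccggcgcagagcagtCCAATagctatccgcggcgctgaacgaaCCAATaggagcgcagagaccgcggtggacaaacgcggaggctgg
Rrm2, chr12:24708004-24708303, plus strand: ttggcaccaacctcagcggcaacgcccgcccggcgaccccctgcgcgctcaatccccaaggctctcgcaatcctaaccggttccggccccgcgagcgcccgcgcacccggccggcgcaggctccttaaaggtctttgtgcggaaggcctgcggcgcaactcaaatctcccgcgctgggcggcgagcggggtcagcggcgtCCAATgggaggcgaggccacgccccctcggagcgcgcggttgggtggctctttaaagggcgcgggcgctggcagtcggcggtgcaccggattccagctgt
Lig1, chr7:13278576-13278875, plus strand: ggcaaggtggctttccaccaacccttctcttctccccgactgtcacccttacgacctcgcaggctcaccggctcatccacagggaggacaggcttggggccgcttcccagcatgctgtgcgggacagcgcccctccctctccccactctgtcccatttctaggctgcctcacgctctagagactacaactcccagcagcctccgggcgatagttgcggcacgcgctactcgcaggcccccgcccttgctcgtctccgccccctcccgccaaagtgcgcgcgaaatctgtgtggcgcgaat
Rpa3, chr6:8259092-8259391, minus strand: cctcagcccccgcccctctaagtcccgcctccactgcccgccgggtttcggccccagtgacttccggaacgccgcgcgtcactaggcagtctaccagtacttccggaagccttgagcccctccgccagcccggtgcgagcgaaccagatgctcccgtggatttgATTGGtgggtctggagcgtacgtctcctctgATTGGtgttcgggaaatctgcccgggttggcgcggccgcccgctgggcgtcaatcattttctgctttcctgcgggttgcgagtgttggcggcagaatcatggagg
Mcm5 carried 1 E2F match, beginning 149 bases before the start, and 3 CCAAT matches. Rrm2 had 1 CCAAT match and Rpa3 2, all of them in Rpa3 on the opposite strand. The window of Lig1 held none of the spellings searched. For Lig1, which has 3 annotated windows, the one whose start most GENCODE transcripts share is printed.

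Genes of the loading reaction were lower in adult skin, while 5 of the 6 subunits of ORC were not called. In the licensing and helicase group, 12 of 20 were lower at 10 weeks than at P3 and 0 higher (median -1.23), and 12 of 20 were lower than at E18.5 (median -1.19).

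The 6 genes of the MCM2-7 ring, the motor of the replicative helicase, were lower at 10 weeks in all cases, against P3 as against E18.5. Mcm5, on chromosome 8 of mm9 between 77633427 and 77652338, reached 30.6 FPKM in E18.5 skin, 37.8 in P3 skin and 9.26 in 10-week skin, with a log2 difference of -1.92 for 10 weeks over P3. Mcm2 stood at 24.9, 31.2 and 8.06 FPKM at the same ages, with a difference of -1.83 for 10 weeks over P3. Mcm6 had 44.7, 49.0 and 13.1 FPKM and a difference of -1.82. These 3 showed the largest falls of the ring. Mcm7 stood at 38.8, 49.8 and 15.2 FPKM at E18.5, P3 and 10 weeks, a difference of -1.65 for 10 weeks over P3. Mcm3 had 30.0, 33.9 and 11.6 FPKM, and Mcm4 25.7, 29.9 and 11.6 FPKM, with differences of -1.46 and -1.29. The 6 subunits, which the ring holds in equal number, kept close to each other: the highest level was 1.799 times the lowest at E18.5, 1.67 times at P3 and 1.89 times at 10 weeks. The ratio FPKM at 10 weeks over P3 lay between 24.5% for Mcm5 and 38.9% for Mcm4. Mcm7 is listed with the microRNA genes Mir106b, Mir25 and Mir93 in the same span, so reads there may be shared.

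The loading factors and their inhibitor were lower too. Cdt1, which brings MCM2-7 to the origin, stood at 9.90 FPKM in E18.5 skin, 12.8 in P3 skin and 3.02 in 10-week skin (-1.78 for 10 weeks over P3). Geminin, Gmnn, which binds and blocks Cdt1, had 29.5, 29.1 and 10.0 FPKM (-1.45). Cdc6, the ATPase that acts with ORC, was at 4.49, 3.28 and 1.08 FPKM, and its difference of -1.04 lies just past the threshold. Geminin thus exceeded its partner Cdt1 at each age on the FPKM scale. Mcm10, a scaffold that is needed when the helicase becomes active, had 5.62, 5.38 and 0.944 FPKM (-1.71), and its adult level was 17.6% of that at P3, the smallest share of the 44.

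ORC, the complex that marks origins, split into Orc1 and the rest. Orc1, in mammals the subunit that is degraded and remade with the cell cycle, stood at 3.29 FPKM in E18.5 skin, 3.41 in P3 skin and 0.778 in 10-week skin, a difference of -1.31 for 10 weeks over P3. None of the other 5 was called in any comparison. Orc2 had 12.9, 16.7 and 12.1 FPKM at E18.5, P3 and 10 weeks, and Orc6 19.8, 16.6 and 11.3 FPKM. The 3 remaining subunits had their highest value in the adult: Orc3 with 10.2, 7.62 and 11.6 FPKM, Orc4 with 12.1, 13.5 and 14.03, and Orc5 with 12.3, 9.12 and 12.9. Orc3 (0.55), Orc5 (0.45) and Orc4 (0.05) were the 3 members with a log2 difference above 0 for 10 weeks over P3. Each of the 3 is listed in a span it shares with another row, Orc3 with Akirin2, Orc4 with Acvr2a and Orc5 with LOC100042049, so that reads may be divided differently between them. Akirin2 differed by 0.05 and Acvr2a by -0.53 for 10 weeks over P3, and LOC100042049 had 14.6, 0.801 and 0.783 FPKM at the 3 ages, above Orc5 itself at E18.5. Orc2 and Orc6 share their span with no other row. The highest subunit was 5.996 times the lowest at E18.5, 4.88 times at P3 and 18.0 times at 10 weeks, with Orc1 the lowest at all 3 ages. The ratio at 10 weeks thus rests on the low value of Orc1. With 5 instead of 1 added to FPKM, Orc1 lost its call for 10 weeks over P3 (-0.54, beside -0.40 for Orc6 and -0.34 for Orc2).

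GINS, the complex of 4 small subunits that joins MCM2-7 and Cdc45, was uneven. Gins1 stood at 11.4 FPKM in E18.5 skin, 13.3 in P3 skin and 5.32 in 10-week skin and was lower at 10 weeks than at P3 (-1.17). Gins2 had 27.8, 21.9 and 12.3 FPKM and was lower at 10 weeks than at E18.5 (-1.11) but not called against P3 (-0.78). Its listed span is shared with Gse1. Gins3 had 4.38, 3.13 and 2.44 FPKM and Gins4 21.6, 19.0 and 18.7, neither called in any comparison, with Gins4 the member of smallest difference for 10 weeks over P3 (-0.03).

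**Figure D2:**
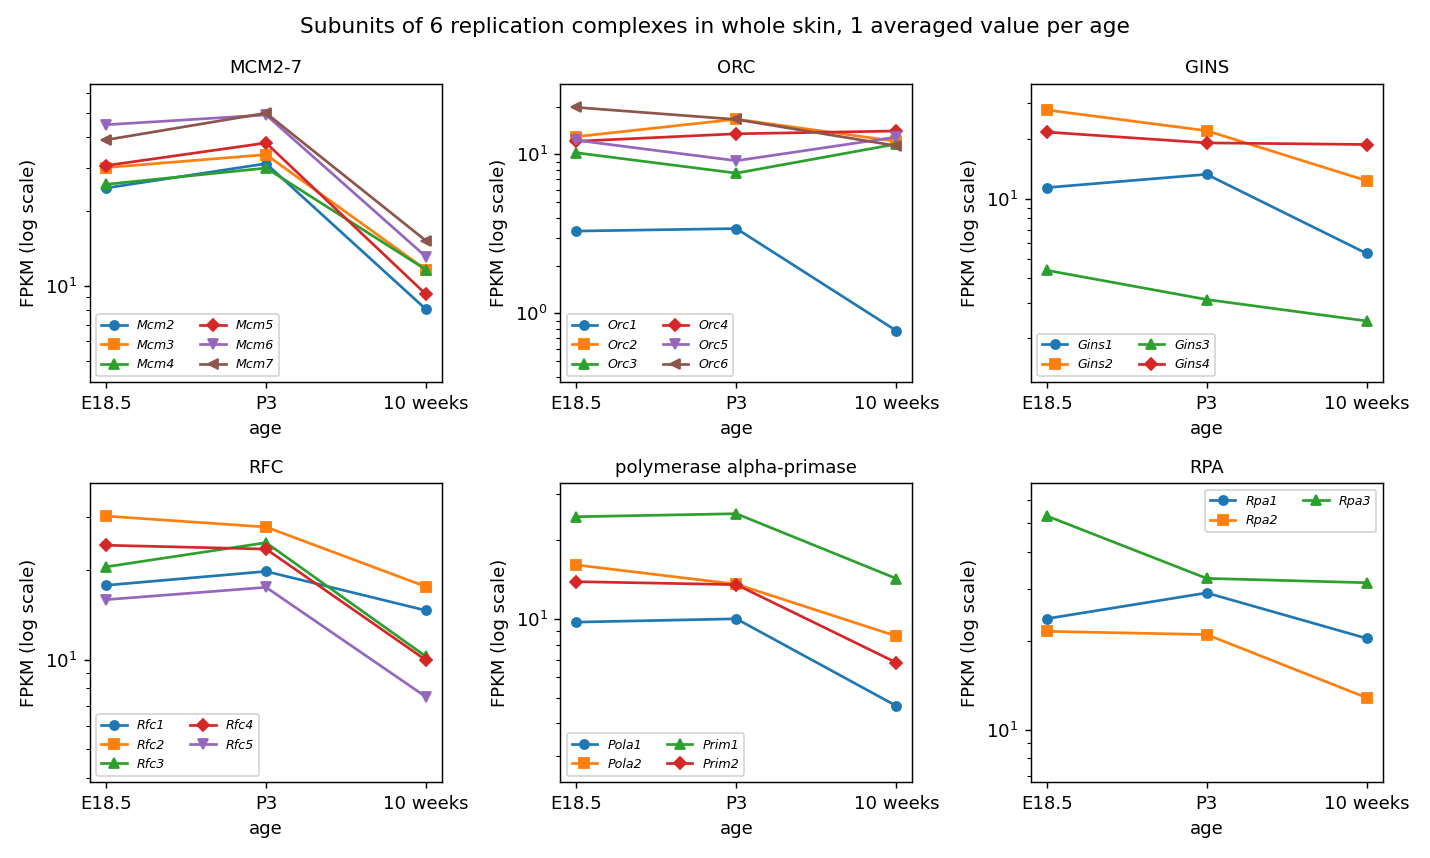
FPKM (log axis) of the subunits of 6 replication complexes at E18.5, P3 and 10 weeks, 1 averaged value per point. All 6 MCM2-7 lines descend together to 10 weeks, whereas of the 6 ORC lines Orc1 alone passes the 2-fold threshold, and the GINS lines spread between -1.17 for Gins1 and -0.03 for Gins4 (log2, 10 weeks over P3).

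Of the 20 polymerase, clamp and fork genes, 20 had a lower value at 10 weeks than at P3, and 8 passed the 2-fold threshold (median -0.84). Against E18.5, 5 of 20 were lower at 10 weeks (median -0.84), and 0 were higher in either comparison.

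The 2 largest falls of the group were those of Lig1 and Chaf1a. DNA ligase 1, Lig1, which seals the fragments of the lagging strand, stood at 19.8 FPKM in E18.5 skin, 25.1 in P3 skin and 6.03 in 10-week skin (-1.89 for 10 weeks over P3). Chaf1a, the large subunit of the histone chaperone CAF-1 that deposits histones behind the fork, had 12.1, 14.4 and 3.14 FPKM (-1.89). The flap endonuclease Fen1, which trims the fragments before ligation, had 18.2, 21.6 and 7.80 FPKM (-1.36). All 3 were also lower than at E18.5. Lig1 is listed with the row 6330408A02Rik, whose level did not exceed 2.64 FPKM at any age.

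For polymerases epsilon and delta the catalytic subunit was lower at 10 weeks than at P3, and the accessory subunits were not called. Pole, the catalytic subunit of the leading-strand polymerase epsilon, had 5.40 FPKM in E18.5 skin, 6.37 in P3 skin and 1.77 in 10-week skin (-1.41 for 10 weeks over P3), against 11.5, 10.1 and 6.45 FPKM for its subunit Pole2 (-0.57). Pold1, the catalytic subunit of the lagging-strand polymerase delta, had 8.69, 10.6 and 4.42 FPKM (-1.09), against 22.0, 24.2 and 16.1 FPKM for Pold2 (-0.56). Pole was also lower at 10 weeks than at E18.5 (-1.21), whereas Pold1 was not called in that comparison (-0.84). The other accessory subunits, which are not among the 44, differed for 10 weeks over P3 by -0.33 (Pold3), 0.47 (Pold4), -0.83 (Pole3) and 0.56 (Pole4). Pold2 shares its span with Aebp1, whose level was 97.2 FPKM at 10 weeks against 14.2 at P3. With 5 instead of 1 added to FPKM, Pole (-0.75) and Pold1 (-0.73) lost their calls for 10 weeks over P3. Pole2 then differed by -0.40 and Pold2 by -0.47. Whether the catalytic and accessory subunits differ beyond the spread between animals could not be tested with 1 value per age.

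Polymerase alpha and primase, which lay down the RNA-DNA primers, had 0 of 4 subunits called in any comparison on the deposited values. Pola1, the catalytic subunit, stood at 9.74 FPKM in E18.5 skin, 10.0 in P3 skin and 4.66 in 10-week skin, and its difference of -0.96 for 10 weeks over P3 was the nearest to the threshold among genes not called. Prim2 had 13.9, 13.6 and 6.82 FPKM (-0.90), and Prim1, the catalytic primase subunit, 24.6, 25.3 and 14.3 FPKM (-0.78). Pola2 had 16.1, 13.6 and 8.61 FPKM (-0.60). With each of the 3 other scalings tried, Pola1, Pola2 and Prim2 passed the threshold as lower at 10 weeks than at E18.5. Pola1 lies on the X chromosome. Xist, the RNA of the inactive X chromosome, stood at 0.0433 FPKM in E18.5 skin, 64.6 in P3 skin and 73.0 in 10-week skin, and the Y-linked Eif2s3y at 42.1 and 0.0838 FPKM and, at 10 weeks, listed at 0, so the comparisons with E18.5 also set a female pattern against a male one. The part of sex in the differences was not tested.

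The clamp and its loader differed in degree. Pcna, the ring that tethers the polymerases, was the most abundant member at all ages, with 171 FPKM in E18.5 skin, 183 in P3 skin and 108 in 10-week skin, and was not called (-0.76 for 10 weeks over P3). GENCODE lists 2 pseudogenes named after it, Pcna-ps1 and Pcna-ps2, that have no row in the tables, so the treatment of their reads is uncertain. Only pseudogenes named after a member were searched for, so copies of members under other names may have been missed. Of the loader, the small subunits Rfc3 (20.4, 24.6 and 10.2 FPKM), Rfc4 (24.1, 23.4 and 9.95) and Rfc5 (15.9, 17.4 and 7.50) were lower at 10 weeks than at P3, with differences of -1.19, -1.16 and -1.12. Rfc2 (30.2, 27.8 and 17.5 FPKM, -0.63) and the large subunit Rfc1 (17.7, 19.7 and 14.6 FPKM, -0.41) were not called. Rfc4 is listed in 1 span with Eif4a2, which had 206 FPKM at 10 weeks against 69.2 at P3, and with the small RNA genes Snora81 and Snord2, so its value is uncertain.

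RPA, which coats single-stranded DNA in replication and also in repair, was not called in any comparison. Rpa1 had 23.8 FPKM in E18.5 skin, 29.1 in P3 skin and 20.4 in 10-week skin (-0.49 for 10 weeks over P3), and Rpa2 21.5, 21.0 and 12.8 FPKM (-0.67). Rpa3, the smallest subunit, had 53.0, 32.5 and 31.5 FPKM, so that its difference of -0.69 for P3 over E18.5 exceeded that of -0.05 for 10 weeks over P3. On this course it parted from the other 2 subunits, which were level or higher at P3.

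All 4 genes of nucleotide supply were lower at 10 weeks than at P3 and than at E18.5, with medians of -1.75 and -1.79, and these include the largest falls of all members. Rrm2, the cell cycle-regulated small subunit of ribonucleotide reductase on chromosome 12 of mm9 between 25393119 and 25399011, reached 29.2 FPKM in E18.5 skin, 45.7 in P3 skin and 8.36 in 10-week skin, a difference of -2.32 for 10 weeks over P3. Tk1, the thymidine kinase of dividing cells, had 36.8, 41.5 and 8.40 FPKM (-2.17). Its listed span (chromosome 11, 117676833 to 117701222) is shared in full with Afmid, so it may not be the extent of Tk1 itself. Afmid stayed at or under 2.13 FPKM. The large reductase subunit Rrm1 had 40.5, 43.4 and 16.7 FPKM (-1.33). By these single values Rrm2 was below Rrm1 at E18.5 and at 10 weeks. At P3 Rrm2 and Rrm1 were close, and their order there could not be tested with 1 value per age. Thymidylate synthase, Tyms, which makes dTMP, took another course, with 19.2 FPKM in E18.5 skin, 10.6 in P3 skin and 4.47 in 10-week skin. Its differences were -0.79 for P3 over E18.5, the lowest of the 44, and -1.09 for 10 weeks over P3. Rrm2 had the highest difference of the 44 for P3 over E18.5 (0.63), also under the threshold. A row named Tyms-ps is in the tables, and reads may be divided between it and Tyms.

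**Figure D3:**
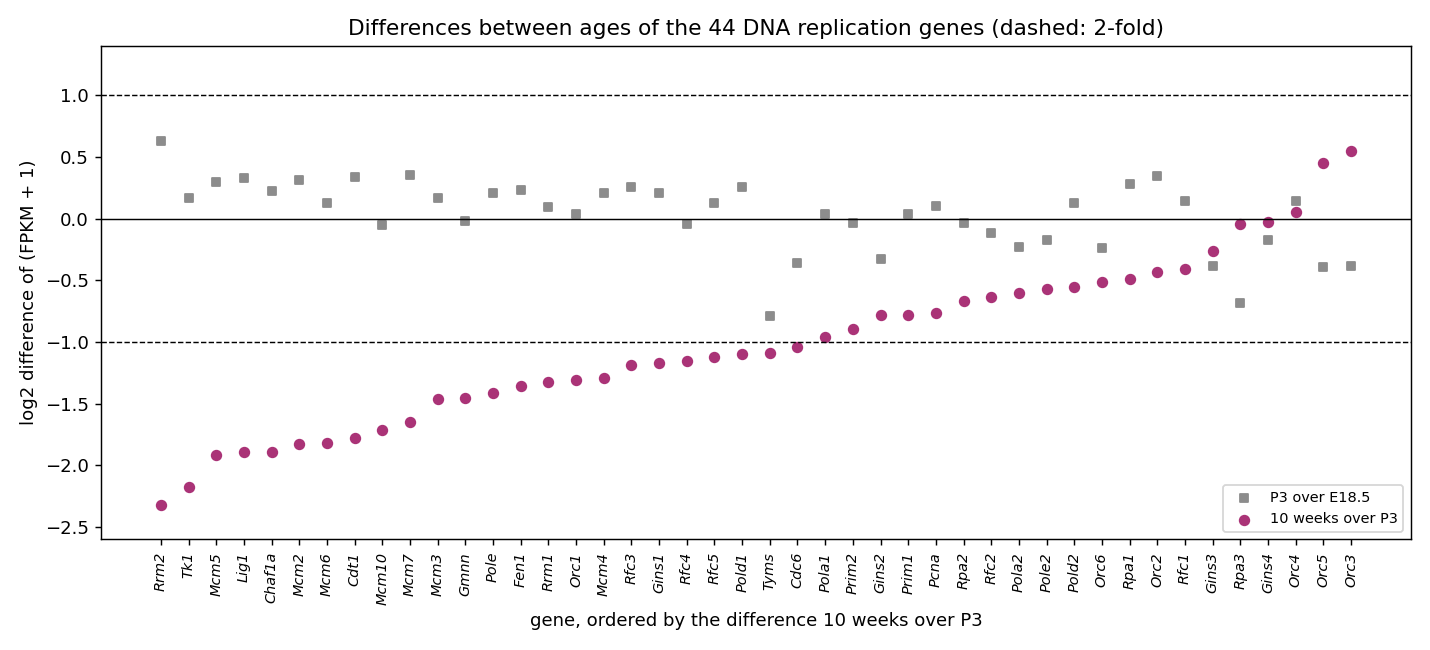
Log2 difference of (FPKM + 1) for P3 over E18.5 (grey squares) and 10 weeks over P3 (filled circles) of the 44 genes, ordered by the second; dashed lines mark 2-fold. All squares lie inside the dashed lines, between -0.79 for Tyms and 0.63 for Rrm2, while the circles run from -2.32 for Rrm2 to 0.55 for Orc3.

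By their calls on the deposited values the 44 genes fell into 4 courses. A total of 20 were lower at 10 weeks than at both earlier ages, and 4 were lower than at P3 alone, Gins1, Rfc3, Rfc5 and Pold1. Gins2 was lower than at E18.5 alone, and 19 were never called. At 10 weeks against E18.5, Gins1 (-0.97), Rfc3 (-0.93), Rfc5 (-0.99) and Pold1 (-0.84) lay inside the threshold as deposited. All 4 passed it with each of the 3 other scalings tried, so a fall against P3 alone depends on the scaling. Pola1, Pola2 and Prim2, of the 19, passed it against E18.5 with these scalings too. The calls turn on values near the threshold for some genes: just past it for 10 weeks over P3 lay Cdc6 (-1.04), Tyms (-1.09) and Pold1 (-1.09), and just inside it Pola1 (-0.96). Across the 44 genes, which share the same 3 libraries, the order of levels at E18.5 and P3 was nearly the same (Spearman's rho 0.95), and that at P3 and 10 weeks less so (0.64). These are descriptions across genes, which are not independent replicates.

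Of 36 further fork and initiation genes, 15 were lower at 10 weeks than at P3 and 0 higher (median -0.86), 21 were not called, and 14 were lower than at E18.5. At P3 against E18.5, 0 of 36 were called. The largest falls were those of Top2a, the topoisomerase that untangles sister DNA (59.5 FPKM in E18.5 skin, 68.8 in P3 skin and 9.83 in 10-week skin, -2.69), and Uhrf1, which brings the maintenance methyltransferase to new DNA (30.3, 38.0 and 6.49 FPKM, -2.38). Of 25 further genes of nucleotide supply, which include purine and pyrimidine synthesis used by all cells, 5 were lower at 10 weeks than at P3 and 2 higher (median -0.63). The largest falls were those of the CTP synthase Ctps (21.4, 54.1 and 16.8 FPKM, -1.63) and Shmt1, which supplies one-carbon units for dTMP (16.8, 23.4 and 8.47 FPKM, -1.37). The 2 higher genes were Samhd1, which breaks down dNTPs (11.3, 8.61 and 38.6 FPKM, 2.04), and Rrm2b, the p53-induced reductase subunit that serves cells outside S phase (3.13, 3.04 and 8.32 FPKM, 1.21). At P3 against E18.5, Ctps was higher (1.301) and the IMP dehydrogenase Impdh1 lower (-1.49). Rrm2b and the S phase subunit Rrm2 therefore differed in opposite directions at 10 weeks against P3.

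In the list of 13 E2F and pocket protein genes, the regulators of this programme, 4 were lower at 10 weeks than at P3 and 1 higher (median -0.48). E2f8, a late-acting repressor of the family, had 6.66 FPKM in E18.5 skin, 10.99 in P3 skin and 1.48 in 10-week skin (-2.27), and the activator E2f2 5.45, 14.2 and 2.83 FPKM (-1.98). E2f2 was also the 1 gene of the list called at P3 against E18.5 (1.23). E2f6, a repressor that acts with Polycomb proteins, was the 1 higher at 10 weeks than at P3 (13.7, 10.1 and 21.7 FPKM, 1.04). The pocket protein Rbl2, known for repression in resting cells, had 7.30, 7.85 and 15.8 FPKM and passed the threshold at 10 weeks against E18.5 (1.01).

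Of 30 mitosis genes, 30 were lower at 10 weeks than at P3 (median -2.28), against 24 of 44 replication genes (median -1.09), and 0 of 30 were called at P3 against E18.5. The summed level of the 30 was 127 FPKM at 10 weeks against 702 at P3, and that of the 44 was 536 FPKM at 10 weeks against 1101 at P3. The largest falls were those of Cdc20 (29.9, 42.8 and 4.89 FPKM, -2.90), an activator of the anaphase-promoting complex, and Mki67 (36.7, 47.2 and 6.04 FPKM, -2.78). The promoter letters differed too: of 25 mitosis genes with a window, 0 held the E2F spellings searched and 19 (76.0%) held TTTGAA or TTCGAA, against 12 and 6 of 36 replication genes. Other E2F spellings were not counted. The difference between the lists was not tested.

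**Figure D4:**
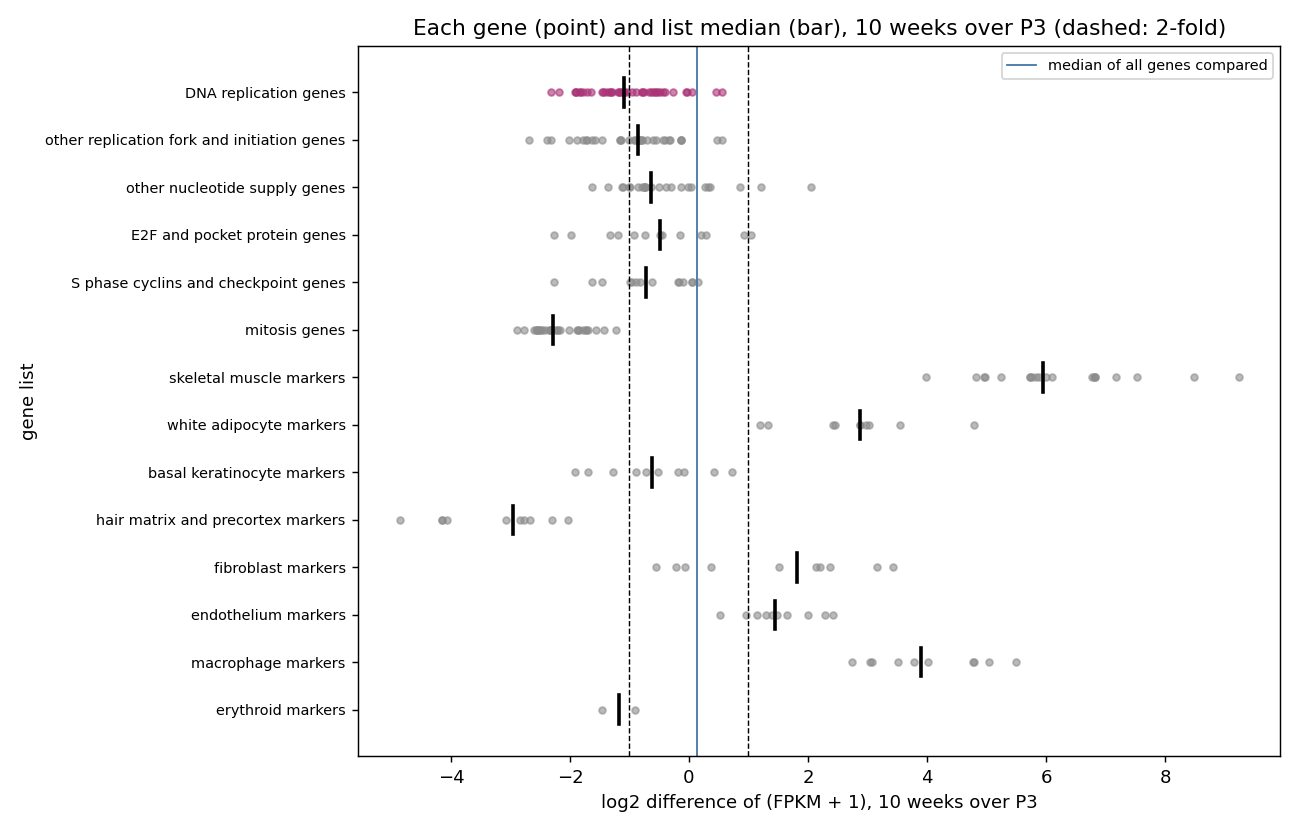
Log2 difference of (FPKM + 1) for 10 weeks over P3 of each gene (point) in the DNA replication list and 13 other lists, with the list median (black bar) and the median of all genes compared (blue line, 0.14). The replication genes have their median at -1.09, the mitosis genes at -2.28 and the skeletal muscle markers at 5.95.

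The cell makeup of the skin samples differed between the ages. Keratinocyte identity was present at all ages, with Krt5 at 1058 FPKM in E18.5 skin, 2638 in P3 skin and 816 in 10-week skin. Of 10 basal keratinocyte markers, 3 were lower at 10 weeks than at P3, 0 higher and 7 not called. Krt15 (0.42) and Dst (0.73) were the 2 with a difference above 0. The summed level of the 10 was 2639 FPKM in E18.5 skin, 6094 in P3 skin and 2646 in 10-week skin. Most of each sum came from Krt5 and Krt14 (952, 2439 and 646 FPKM for Krt14), so it does not speak for the other markers. Of 10 markers of hair matrix and precortex, 10 were lower at 10 weeks than at P3, with summed levels of 146 FPKM in E18.5 skin, 2251 in P3 skin and 132 in 10-week skin. Krt71 alone gave 65.8, 1632 and 91.0 FPKM of these sums, so they largely follow 1 gene. At 10 weeks against E18.5, 2 of the 10 hair markers were lower, and at P3 against E18.5, 8 of 10 were higher. Skeletal muscle markers were higher at 10 weeks than at P3 in 20 of 20 cases (summed 5456 FPKM in E18.5 skin, 465 in P3 skin and 28510 in 10-week skin), white adipocyte markers in 10 of 10 (6216, 1892 and 10312 FPKM) and macrophage markers in 10 of 10 (282, 108 and 2752 FPKM). Endothelial markers were higher in 8 of 10 (222, 74.96 and 210 FPKM) and fibroblast markers in 6 of 10 (4179, 1604 and 4663 FPKM). Of 7 erythroid markers found, 2 reached 1 FPKM. In whole tissue, fewer dividing cells and less RNA per dividing cell cannot be told apart, and the part of these markers in the replication result was not tested. With ages scaled to the total without muscle markers and the 100 highest genes, 26 of 44 members were lower at 10 weeks than at P3, against 11.4% of all genes. This scaling shifts log2 ratios for 10 weeks over P3 by -0.13. It is no correction for cell makeup, whose part was not tested by it.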

How the data were processed

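RNA of mouse skin at 3 ages was extracted with Trizol and made into Illumina TruSeq libraries, per the labels' protocols. The deposited values are FPKM, 1 per gene and age, which the authors averaged, per the file headers. TopHat2 2.0.7, Cufflinks 2.1.1 and mm9 are named in the submitters' processing notes. Annotation, strand setting, depth and the treatment of shared reads: not given in the sources used here, so the precision of low values is unknown. Values of 0 bearing a failure mark (3 at E18.5, 7 at P3) were left out; no member was among them. Genes that reached 1 FPKM at any age were compared (pseudocount 1), without a test, since 1 value per age allows none. Starts were counted from 0: with 1 added, 228 of 535 microRNA genes matched their RefSeq length, and 4 matched as listed. Alternatives were pseudocounts, filters, scalings and fold thresholds. All 44 members are named, and from each other pathway list the 2 largest called falls and rises at 10 weeks against P3 and any gene against its list's majority. Impdh1, Rb1, Rbl1, Rbl2, Pold3, Pold4, Pole3, Pole4 and the other genes of the S phase list beside Ccna2 and Ccne1 fall outside that rule. They were chosen after their values were seen. Of 208 list entries, 198 matched by symbol, 7 by an older symbol and 3 not at all. Members and lists were chosen with earlier results of these data known. Promoter windows are RefSeq's (GRCm38.p6); 8 members had none. The last 20 bases were found in a GENCODE M21 transcript of the same gene for 32 of 36. The call rule was run on simulated data with an assumed noise, large differences and no low genes. That run checks the code and gives no error rate for the calls made here. Python 3.11.15, numpy 2.4.6, pandas 2.3.3 and matplotlib 3.10.9 were used.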

Additional observations from a re-analysis of the deposited data

How the results depend on the processing

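No member reversed a called difference under any setting tried. A pseudocount of 5 left 14 members lower at 10 weeks than at P3 (median -0.73) and 12 lower than at E18.5 (6.13% and 3.83% of all genes), 26 calls in all over the 3 comparisons against 45; the 14 that stayed were Mcm2 to Mcm7, Cdt1, Gmnn, Lig1, Fen1, Rrm1, Rrm2, Tk1 and Chaf1a. A call at 1.5-fold gave 71 calls, with 36 lower at 10 weeks than at E18.5 (11.5% of all genes), and at P3 against E18.5 2 lower (Rpa3 and Tyms; 18.1% of all genes) and 1 higher (Rrm2; 19.1%). A call at 3-fold gave 17, with 10 lower than at P3 (5.08% of all genes) and 7 lower than at E18.5 (3.9%). The median for 10 weeks over E18.5 passed 2-fold with a pseudocount of 0.1 (-1.08), the median of ratios (-1.16), the upper quartile (-1.21) and the total without muscle markers and the 100 highest genes (-1.18). The median log2 difference of members, P3 over E18.5, was 0.11 as deposited and became -0.00176 with the median of ratios and -0.16 with the upper quartile, where Tyms alone was lower (1 member). Pola1 became lower at 10 weeks than at P3 with a pseudocount of 0.1 and with 2 of the 3 scalings, and Cdc6 lost its call with the upper quartile. Prim2 became lower than at P3 with the total without muscle markers and the 100 highest genes. Gins1, Rfc3, Rfc5, Pola1, Pola2, Pold1 and Prim2 became lower at 10 weeks than at E18.5 with each of the 3 scalings. Of all genes, 8.21% were lower in that comparison with the median of ratios, 8.64% with the upper quartile and 8.4% with the total. The median of ratios shifts log2 ratios by -0.12 for P3 over E18.5, -0.10 for 10 weeks over P3 and -0.22 for 10 weeks over E18.5, and the upper quartile by -0.28, 0.01 and -0.27. Over all genes the upper quartile gave 981 calls up and 1886 down for P3 over E18.5, against 1401 up and 1380 down as deposited. Leaving out the 9 members that share a span, an alternative chosen after seeing the data, left 20 of 35 lower at 10 weeks than at P3. No paired analysis was possible because each age has 1 averaged value. Depth is unknown, so the error of low genes such as Orc1, Cdc6 and Mcm10 cannot be stated.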

Other observations

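Of 14 cyclin and checkpoint genes of S phase, 3 were lower at 10 weeks than at P3 and 0 higher (median -0.73), and 7 were lower than at E18.5; at P3 against E18.5, 0 were called. The 3 were Ccna2, the S phase and G2 cyclin (43.5 FPKM in E18.5 skin, 43.3 in P3 skin and 8.17 in 10-week skin), Ccne1, a cyclin of S phase entry (9.27, 8.002 and 1.90 FPKM), and Fbxo5, an inhibitor of the anaphase-promoting complex (15.5, 11.1 and 3.42 FPKM). The cyclin Ccne2 was not called against P3 (-0.63) but was lower than at E18.5 (-1.18). Skp2 (-0.99), Cdk2 (-0.89) and Cdc25a (-0.83) were not called for 10 weeks over P3. The kinase Chek1 had 6.30, 4.83 and 2.00 FPKM (-0.96 for 10 weeks over P3, -1.28 for 10 weeks over E18.5). Its upstream kinase Atr had 4.96, 6.16 and 5.35 FPKM and was not called, nor were Atrip, Rad17, Hus1, Rad1 and the row Rad9.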
